A study of Arabidopsis thaliana with 12 samples.

Results

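DFR, UF3GT, AT4G14090 and UGT78D2 are 4 Arabidopsis thaliana genes of anthocyanin synthesis. They were taken as the genes named alone on a probe set under these names, at the loci AT5G42800, AT5G54060, AT4G14090 and AT5G17050. This gave 1 probe set each, 4 of the 13513 probe sets with 1 annotated gene and of the 22746 tested. Their levels were measured in whole seedlings, 10 days old, raised on agar at 80 micromoles per second and square metre of constant light. The 12 one-colour arrays fall into 4 groups of 3 biological replicates, lettered A, B and C: the mutant pft1-1 at 23C, the wild type Columbia (WT) at 23C, pft1-1 at 16C and WT at 16C. The mutant has the Columbia background and was used as a single line. PFT1, also known as MED25, is a subunit of Mediator, the complex that relays signals from transcription factors to RNA polymerase, and the study concerns its part in promoting flowering.

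Anthocyanins are red to purple flavonoid pigments that plants store in the vacuole. They are made from products of the phenylpropanoid pathway through a chain of early steps, shared with the colourless flavonols, and of late steps that lead to the pigments and, in the seed coat, to tannins. The late genes are switched on together by complexes of MYB, bHLH and WD-repeat proteins, and seedlings are known to build up anthocyanin in strong light, with sugar and in the cold. DFR, dihydroflavonol reductase, catalyses the first late step and makes the precursors of the coloured anthocyanidins. The other genes encode enzymes that attach sugars: UGT78D2 adds glucose to flavonols and to anthocyanidins, AT4G14090 (UGT75C1) adds a further glucose to anthocyanins, and UF3GT (UGT79B1) adds xylose to a glucose already on the pigment. A probe set reports transcript level and not pigment, and pigment was not analysed here.

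Values are log2 expression per probe set, so a difference of 1 is a doubling. Array medians ran from 5.07 to 5.25 and the lower quartile of all values was 2.52, so values near 2.5 lie at the low end of the scale, and the files hold no detection call. The 4 letter C arrays differed in control values from the 8 lettered A or B. The mean of the spike-in controls was 4.84 to 9.51 for letter C and 2.45 to 2.54 for A and B, and the 3' minus 5' difference of Arabidopsis control transcripts was 3.52 to 4.53 for letter C and 2.64 to 3.07 for A and B. Each group holds 1 array of letter C, but these arrays were not alike. Their spike-in means were 8.68 in pft1-1 at 23C, 9.51 in pft1-1 at 16C, 4.84 in WT at 23C and 5.83 in WT at 16C. Their 3' minus 5' differences were 4.53, 3.52, 3.86 and 3.61 in the same order. Results with letters A and B alone stand beside the calls. RCA, the Rubisco activase gene of green tissue, read 14.34 to 14.82 over all 12 arrays, near the highest value tested, 15.24. In pft1-1 it read 14.69 to 14.74 at 23C and 14.52 to 14.61 at 16C, a difference that was not called (limma adjusted p = 0.300). Whether shoot content was equal was not tested. Of the 14 genes on the shoot list, it alone had a probe set of its own in the annotation used. In whole seedlings, fewer cells that make anthocyanin and less RNA per cell cannot be told apart.

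Of the 4 genes, 3 were at the bottom of their range in all 3 pft1-1 arrays at 23C and well above it in all 6 arrays at 16C. DFR read 2.43, 2.45 and 2.49 in the A, B and C replicates of pft1-1 at 23C and 2.49, 5.50 and 6.68 in the same order in WT at 23C. At 16C it read 9.77, 7.32 and 6.17 in pft1-1 and 7.72, 7.21 and 7.23 in WT. The pft1-1 arrays at 23C were flat, with a range of 0.059, whereas the WT arrays at 23C spread over 4.19, replicate A lying with the mutant arrays, C within the range of the 16C arrays and B between. At 16C the WT arrays lay within 0.512 of each other and inside the spread of the pft1-1 arrays, of which replicate A was the highest of all 12. Group means ran from 2.46 ± 0.03 in pft1-1 at 23C through 4.89 ± 2.16 in WT at 23C and 7.39 ± 0.29 in WT at 16C to 7.75 ± 1.84 in pft1-1 at 16C (SD, n = 3 each). The 16C means differed by less than the larger SD, and each 23C mean differed from the next in this order by little more than the SD of WT at 23C.

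UF3GT had a like pattern over the arrays. It read 2.41, 2.40 and 2.57 in the A, B and C replicates of pft1-1 at 23C and 2.42, 4.15 and 5.23 in WT at 23C. At 16C it read 8.54, 6.14 and 4.88 in pft1-1 and 6.76, 6.47 and 6.67 in WT. Replicate A of WT at 23C again lay at the level of the mutant arrays, and pft1-1 at 16C spanned 3.66 against 0.288 in WT at 16C. The means were 2.46 ± 0.09 in pft1-1 at 23C, 3.93 ± 1.42 in WT at 23C, 6.52 ± 1.86 in pft1-1 at 16C and 6.63 ± 0.15 in WT at 16C (SD, n = 3 each), the 16C means again within the larger SD.

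AT4G14090 read 3.33, 3.28 and 3.32 in pft1-1 at 23C and 3.30, 4.59 and 4.98 in WT at 23C, with 9.07, 6.38 and 6.51 in pft1-1 at 16C and 6.88, 6.94 and 6.84 in WT at 16C. Its low level of about 3.3 was above the lower quartile of all values but as flat, with a range of 0.046 over the 3 pft1-1 arrays at 23C. The means were 3.31 ± 0.02 in pft1-1 at 23C, 4.29 ± 0.88 in WT at 23C, 7.32 ± 1.52 in pft1-1 at 16C and 6.89 ± 0.05 in WT at 16C (SD, n = 3 each). Each of these 3 genes thus had 4 arrays within 0.2 of its lowest value, the same 4 arrays. Without detection calls or scanner intensities it cannot be told whether these levels are background, so folds down to them are given as measured and may understate a fall.

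UGT78D2 was high on every array and varied less. It read 8.62, 8.91 and 7.68 in the A, B and C replicates of pft1-1 at 23C, against 8.56, 9.23 and 8.65 in WT at 23C. The 16C arrays gave 9.68, 8.98 and 8.87 in pft1-1 and 9.26, 9.20 and 9.49 in WT. Replicate C of pft1-1 at 23C, the array with the highest 3' minus 5' difference (4.53), was the lowest. Replicate A of pft1-1 at 16C was the highest, and all 4 groups overlapped with at least 1 neighbour. The means were 8.40 ± 0.64 in pft1-1 at 23C, 8.81 ± 0.36 in WT at 23C, 9.17 ± 0.44 in pft1-1 at 16C and 9.32 ± 0.15 in WT at 16C (SD, n = 3 each), neighbours in this order differing by less than the larger SD of each pair. Over all 12 arrays its range was 2.0, compared with 7.34 for DFR, 6.13 for UF3GT and 5.78 for AT4G14090. The SD of those 3 over the arrays exceeded that of 99.9%, 99.7% and 99.5% of the probe sets tested, and that of UGT78D2 exceeded 78.9%.

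**Figure D1:**
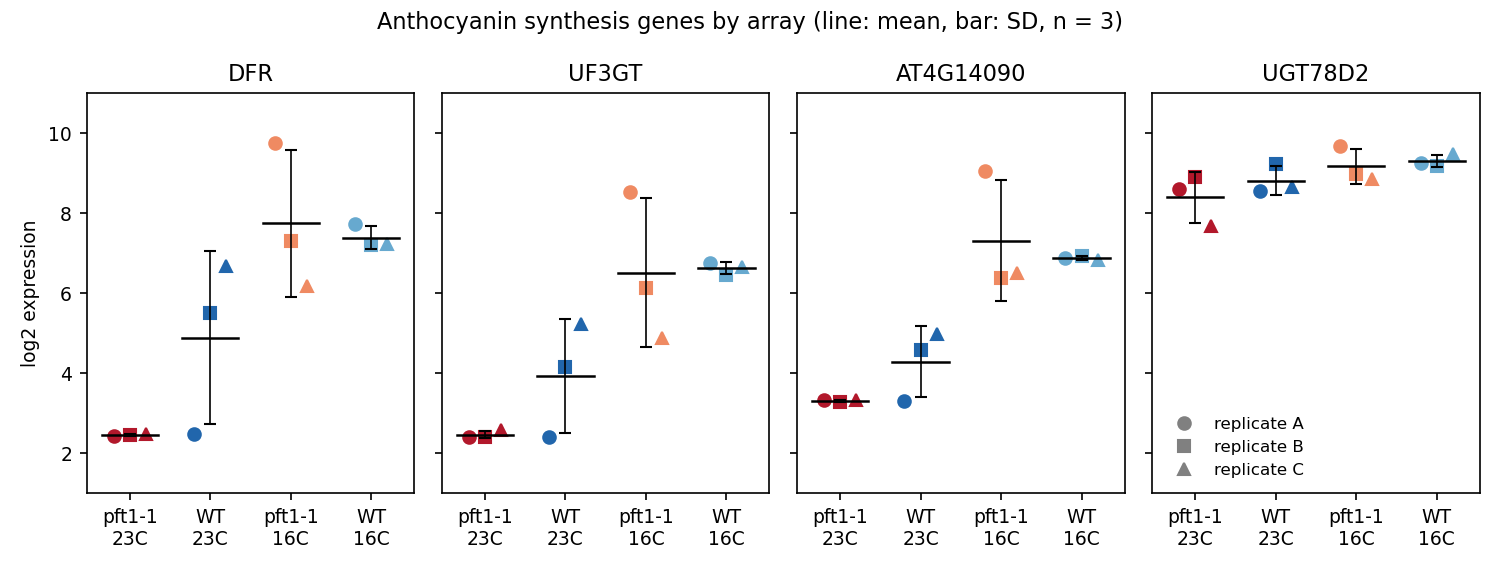
Log2 expression of DFR, UF3GT, AT4G14090 and UGT78D2 on each array, by group, with symbols for the replicate letters, a line at the mean and a bar of 1 SD (n = 3). DFR, UF3GT and AT4G14090 sit at a flat low level in pft1-1 at 23C and in replicate A of WT at 23C, and between 4.88 and 9.77 on all arrays at 16C, while UGT78D2 stays between 7.68 and 9.68.

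The comparison of 23C with 16C in pft1-1 asks how the genes differ between growth temperatures in the mutant. All seedlings were 10 days old, so any difference in growth stage between 16C and 23C cannot be told apart from temperature here. DFR fell by 5.30 on the log2 scale (SE 1.09, 95% interval -7.77 to -2.82, limma adjusted p = 0.0119), 39.3-fold as measured. UF3GT fell by 4.06 (SE 0.90, 95% interval -6.09 to -2.02, limma adjusted p = 0.0156), and AT4G14090 fell by 4.01 (SE 0.67, 95% interval -5.53 to -2.48, limma adjusted p = 0.00521), which is 16.6-fold and 16.1-fold. All 3 falls end at the flat low level described above. UGT78D2 had a difference of -0.77 (SE 0.34, 95% interval -1.53 to -0.01, limma adjusted p = 0.150) and was not called. So 3 of the 4 genes were called lower, where 9.27% of all probe sets tested were, and for the same 3 of 4 every 23C array lay below every 16C array, as for 15.9% of probe sets. The genes were chosen with earlier results of these data known, so setting these counts beside the shares is not a test. The median difference of the 4 genes was -4.03, compared with 0.04 over all probe sets tested.

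By letter, in the order A, B and C, the pft1-1 difference between 23C and 16C was -7.34, -4.87 and -3.69 for DFR, -6.12, -3.74 and -2.31 for UF3GT and -5.74, -3.10 and -3.19 for AT4G14090. The sign had to be the same in all letters for these 3 genes, since their 23C and 16C arrays did not overlap. Letter A, with the highest 16C array, gave the largest difference. For UGT78D2 the differences were -1.06, -0.07 and -1.19. Leaving out the A replicate of pft1-1 at 16C gave differences of -4.29 for DFR, -3.05 for UF3GT and -3.13 for AT4G14090, and all 3 calls held (limma adjusted p = 0.0364, 0.0340 and 0.00551). With letters A and B alone, DFR (limma adjusted p = 0.0465) and UF3GT (0.0419) were called and AT4G14090 was not (0.0518). With only the 6 arrays of pft1-1, UF3GT was not called (limma adjusted p = 0.0554).

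In WT the same temperature comparison gave differences in the same direction that did not pass the threshold. AT4G14090 had a difference of -2.60 (SE 0.67, 95% interval -4.12 to -1.07, limma adjusted p = 0.0632), UF3GT of -2.70 (SE 0.90, limma adjusted p = 0.139), DFR of -2.50 (SE 1.09, limma adjusted p = 0.262) and UGT78D2 of -0.50 (SE 0.34, limma adjusted p = 0.513). None of the 4 genes was called, where 4.89% of probe sets tested were called in either direction, 1112 in all and 1859 with the letters as replicate block. For DFR, UF3GT and AT4G14090 every 23C array lay below every 16C array, by at least 0.53, 1.24 and 1.86, as happened for 10.7% of probe sets. The median difference of the 4 genes was -2.55, compared with 0.02 over all probe sets.

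The size of the WT difference rests on how replicate A at 23C is counted. In the order A, B and C it was -5.23, -1.71 and -0.55 for DFR, -4.34, -2.32 and -1.44 for UF3GT, and -3.58, -2.35 and -1.86 for AT4G14090. Without that array the differences in WT were -1.30 for DFR, -1.94 for UF3GT and -2.10 for AT4G14090 (limma adjusted p = 0.630, 0.375 and 0.194). AT4G14090 passed in 2 alternatives, when the A replicate of pft1-1 at 16C was left out (limma adjusted p = 0.0104) and among the upper 60% of probe sets by mean (0.0217), where fewer probe sets were tested.

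**Figure D2:**
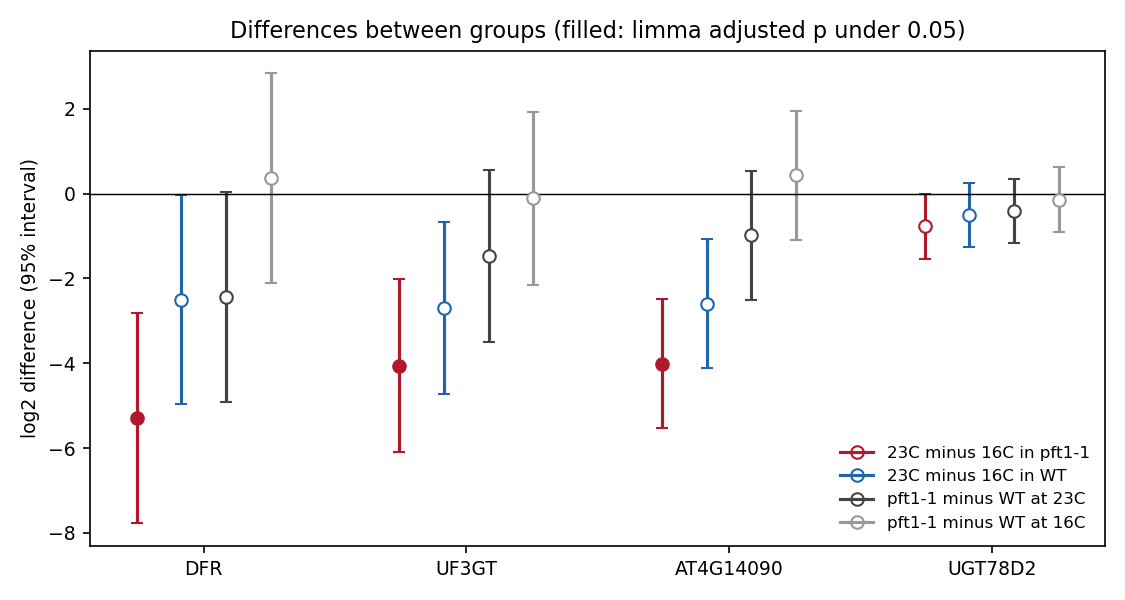
Log2 differences of the 4 genes between groups, with 95% intervals from limma, for 23C minus 16C in pft1-1 and in WT and for pft1-1 minus WT at 23C and at 16C. Filled points passed an adjusted p under 0.05: DFR (-5.30), UF3GT (-4.06) and AT4G14090 (-4.01) in pft1-1 between temperatures, and no other.

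Between the genotypes at 23C, all 4 genes had lower means in pft1-1 and none was called. DFR had a difference of -2.43 (SE 1.09, 95% interval -4.91 to 0.04, limma adjusted p = 0.662), UF3GT of -1.47 (SE 0.90, 95% interval -3.50 to 0.57), AT4G14090 of -0.98 (SE 0.67, 95% interval -2.51 to 0.54) and UGT78D2 of -0.41 (SE 0.34, 95% interval -1.17 to 0.35). Calls among all probe sets were 5, or 0.022%. For DFR all 3 pft1-1 arrays lay below all 3 WT arrays, as for 3.75% of probe sets, but by 0.0036, a gap between arrays at the flat low level. The median difference of the 4 genes was -1.23, compared with 0.01 over all probe sets.

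For DFR, UF3GT and AT4G14090 the difference at 23C came from replicates B and C. By letter (A, B, C) the genotype difference was -0.06, -3.05 and -4.19 for DFR, -0.01, -1.74 and -2.66 for UF3GT, and 0.03, -1.31 and -1.66 for AT4G14090. In letter A, then, both genotypes were at the low level, and in letters B and C only the mutant was. Leaving out the A replicate of WT at 23C gave a DFR difference of -3.63 (limma adjusted p = 0.180). Leaving out its C replicate gave -1.54, and letters A and B alone gave -1.55. The same arrays set the range for UF3GT, -2.23 without the A and -0.82 without the C replicate of WT at 23C, and for AT4G14090, -1.48 and -0.64. UGT78D2 gave 0.06, -0.32 and -0.97 by letter. Its mean difference was -0.05 without the C and -0.66 without the B replicate of pft1-1 at 23C, and -0.20 without the B replicate of WT at 23C.

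At 16C, no gene was called between the genotypes, nor did any of the 4 have all 3 pft1-1 arrays below all 3 WT arrays, as 8.53% of probe sets did. DFR had a difference of 0.37 (95% interval -2.11 to 2.84), AT4G14090 of 0.43 (95% interval -1.09 to 1.95), UF3GT of -0.11 (95% interval -2.15 to 1.92) and UGT78D2 of -0.14 (95% interval -0.90 to 0.62), with SEs as at 23C and a limma adjusted p of 1.0 each. Calls among all probe sets were 8, or 0.0352%. By letter (A, B, C), DFR differed by 2.05, 0.11 and -1.06, UF3GT by 1.78, -0.33 and -1.79, and AT4G14090 by 2.19, -0.56 and -0.34, so the letters did not share a sign. Leaving out the A replicate of pft1-1 at 16C, the difference turned to -0.64 for DFR and -0.44 for AT4G14090.

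Whether the genotypes differ in their temperature response was tested by the interaction, the difference between genotypes at 23C less that at 16C. It was -2.80 for DFR (95% interval -6.30 to 0.70), -1.36 for UF3GT (95% interval -4.23 to 1.52), -1.41 for AT4G14090 (95% interval -3.57 to 0.74) and -0.27 for UGT78D2 (95% interval -1.34 to 0.81). No gene passed (limma adjusted p = 0.947, 0.947, 0.947 and 0.962), and limma called 0 of all probe sets tested (0%). Of these 22746, 1259 had an unadjusted limma p under 0.05, where a share of about 0.05 would be so with no interaction at all. With 1 array left out at a time the interaction ranged from -4.0 without the A replicate of WT at 23C to -1.79 without the A replicate of pft1-1 at 16C for DFR, and from -1.91 to -0.54 without the same arrays for AT4G14090. For UF3GT it was -0.35 and -2.18 without the A and the C replicate of pft1-1 at 16C, and -2.11 and -0.71 without those of WT at 23C. For UGT78D2 it ran from -0.52 without the B to 0.094 without the C replicate of pft1-1 at 23C, with -0.02 and -0.42 without the A and the C replicate of pft1-1 at 16C and -0.06 without the B replicate of WT at 23C. The calls in pft1-1 and their absence in WT are therefore not shown to differ between the genotypes.

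Of the 67 genes on the lists drawn up for the flavonoid and anthocyanin pathway, 13 had a probe set of their own in the annotation used, 9 besides the 4 genes above. Only such genes are called measured here, and others may lie on probe sets with several or no annotated genes. The lists too were chosen with earlier results of these data known, so counts of their calls are not a test. Between 23C and 16C in pft1-1, 4 of the 9 were called lower and 0 higher, where 9.27% of all probe sets were called lower, with a median difference of -1.41. CHIL, a chalcone isomerase-like protein that aids the entry step of flavonoid synthesis, fell by 2.32 (SE 0.39, limma adjusted p = 0.00500). It read 5.56, 6.02 and 4.75 in pft1-1 at 23C and 8.48, 7.23 and 7.58 in pft1-1 at 16C, groups that did not overlap. All 3 pft1-1 arrays at 23C lay below all 3 at 16C for 5 of the 9 genes, as for 15.9% of probe sets. AT1G06000 (UGT89C1), which adds rhamnose to flavonols, fell by 2.72 (SE 0.43, limma adjusted p = 0.00402), with 6.33, 7.54 and 6.29 at 23C and 9.72, 9.28 and 9.33 at 16C. UGT71C1, a glucosyltransferase active on flavonols and other phenolics, fell by 2.47 (SE 0.56, limma adjusted p = 0.0174).

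AT5MAT, which adds malonate to anthocyanins and is the 1 other measured gene of the late pigment steps, fell by 1.82 (SE 0.53, limma adjusted p = 0.0433). It read 2.44, 2.23 and 2.44 in pft1-1 at 23C and 5.59, 3.33 and 3.63 in pft1-1 at 16C. With the letters as replicate block its call was lost (limma adjusted p = 0.0622), and it held in 3 of the 12 fits that left out an array. The UGT71C1 call was lost without the A or B replicate of pft1-1 at 16C (limma adjusted p = 0.0639 and 0.0514), without the A replicate of pft1-1 at 23C (0.0636) and with only the pft1-1 arrays (0.0876). With letters A and B alone UGT71C1 was called (limma adjusted p = 0.0188), and AT1G06000 (0.0763), CHIL (0.0582) and AT5MAT (0.166) were not. In WT none of these 4 passed, with temperature differences of -1.44 for CHIL, -1.47 for AT1G06000, -2.00 for UGT71C1 and -1.95 for AT5MAT (limma adjusted p = 0.0698, 0.0924, 0.0834 and 0.0723), though each passed in 1 to 3 of its alternatives. Every WT array at 23C lay below every WT array at 16C for all 4, the only ones of the 9, as for 10.7% of probe sets tested. Unlike DFR, AT5MAT was near its lowest values on all 6 arrays at 23C, 2.30 to 2.55 in WT, and UGT71C1 in WT likewise read 2.45 to 2.56. These values lie near the lower quartile of all values, as the low DFR values do, so these differences too are as measured and may understate a fall.

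The other 5 genes were not called in any comparison. UGT78D1, which adds rhamnose to flavonols, had temperature differences of -1.41 in pft1-1 and -0.52 in WT. UGT78D3, which adds arabinose to flavonols and is a relative of UGT78D2, was flat at 3.0 to 3.09 on 11 arrays and read 3.49 in replicate A of WT at 23C. BAN, the anthocyanidin reductase of the seed coat, read 1.95 to 2.0 on all 12 arrays. HYH, a light-signalling bZIP factor and the 1 measured gene of 14 activators, read 7.22 to 8.10, with differences of 0.01 in pft1-1 and -0.09 in WT. TRY, a small MYB protein that represses MYB and bHLH complexes and the 1 measured gene of 10 repressors, had differences of 0.72 in pft1-1 and 0.56 in WT (SE 0.38 each). Between genotypes 0 of the 9 were called at either temperature, where 0.022% of all probe sets were at 23C and 0.0352% at 16C. AT1G06000 had the lowest difference at 23C, -1.59 (SE 0.43, limma adjusted p = 0.428).

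**Figure D3:**
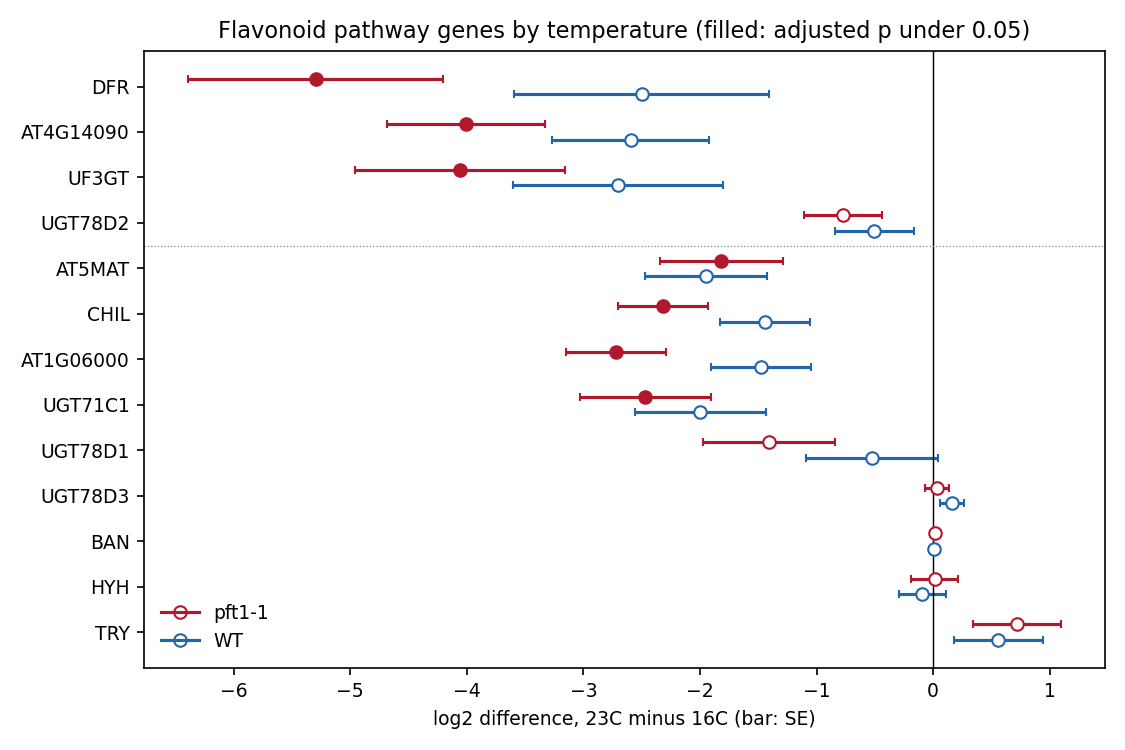
Log2 difference between 23C and 16C in pft1-1 and in WT, with SE, for the 4 genes (above the dotted line) and the other 9 measured genes of the flavonoid pathway lists, filled where the adjusted p was under 0.05. Filled points occur in pft1-1 alone, 3 among the 4 genes and 4 among the 9, and the WT points of these 7 lie on the same side of 0.

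The genes most like each of the 4 were sought by Pearson correlation over the 12 arrays among 2766 other single-gene probe sets with an SD of at least 0.5. Arrays share their group and letter, so these r describe likeness and carry no test, and the r over deviations from the group means is given beside each. DFR, UF3GT and AT4G14090 ranked among each other's nearest: r was 0.985 between DFR and UF3GT (0.971 over deviations), 0.974 between UF3GT and AT4G14090 (0.932) and 0.959 between DFR and AT4G14090 (0.901). UGT78D2 had an r of 0.749 with DFR (0.421 over deviations), 0.754 with UF3GT (0.428) and 0.755 with AT4G14090 (0.503).

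Next to DFR came UGT72E2, a glucosyltransferase of lignin precursors, with an r of 0.965 (0.895 over deviations). It read 4.88, 5.16 and 4.73 in pft1-1 at 23C and 4.75, 6.32 and 6.31 in WT at 23C, with 7.96, 7.43 and 6.33 in pft1-1 at 16C and 7.31, 7.71 and 7.31 in WT at 16C. Its array A of WT at 23C was thus as low as the mutant arrays, as for DFR. AT2G19680 (r = 0.949, 0.847 over deviations) and AT3G13650 (0.943, 0.779) were the other nearest genes of DFR, and AT4G14020 (0.953, 0.777) completed those of UF3GT. AT4G14090 was also close to AT5G05960 (0.962, 0.716), AT3G52730 (0.960, 0.702) and AT1G62790 (0.954, 0.658). For UGT78D2 the nearest were AT1G64890 (0.938, 0.906 over deviations), PYK10 (0.923, 0.880), UGT78D1 (0.914, 0.853), AT4G30660 (0.913, 0.880) and AT2G33850 (0.908, 0.817).

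**Figure D4:**
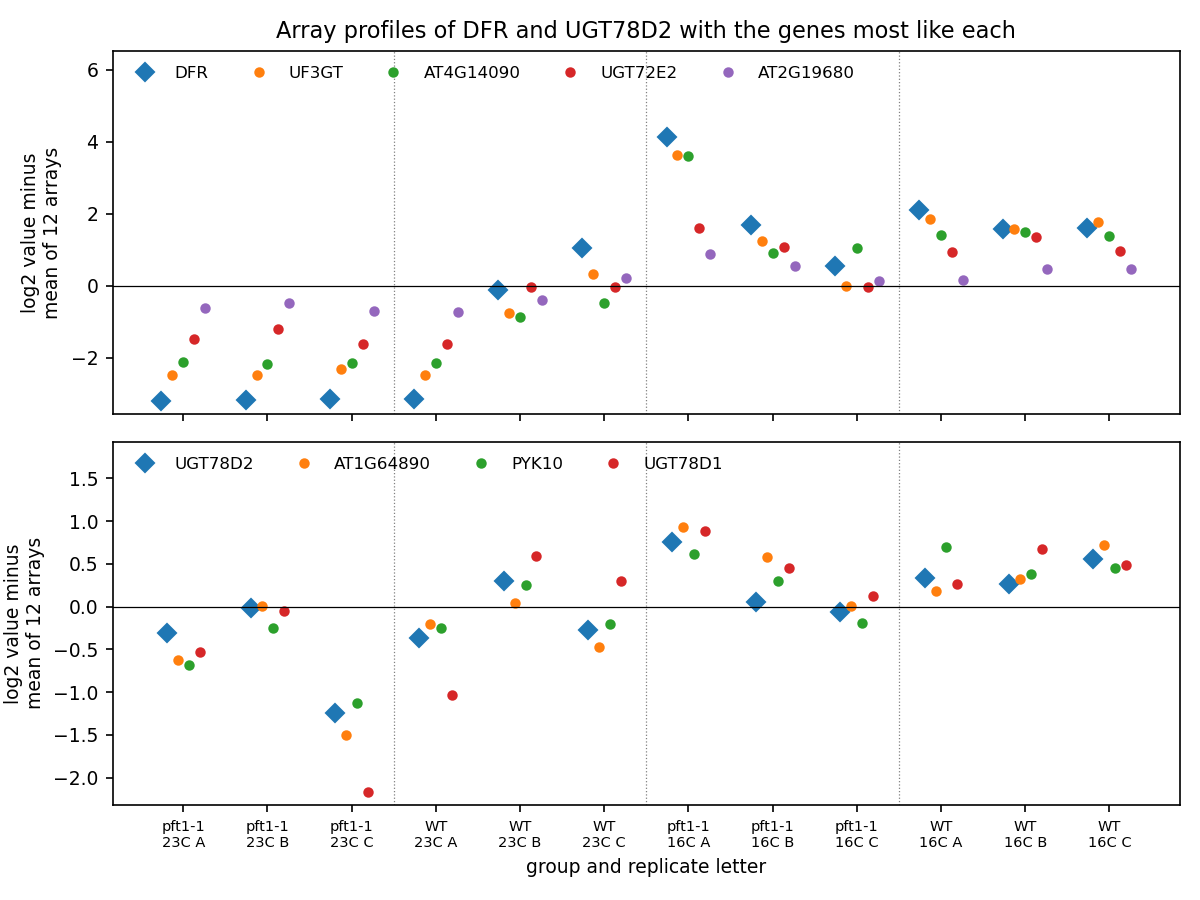
Log2 value minus the gene's mean over the 12 arrays, by group and replicate letter, for DFR with 4 of its nearest genes (upper panel) and UGT78D2 with 3 of its nearest (lower panel). In the upper panel replicate A of WT at 23C lies with the pft1-1 arrays at 23C, and in the lower panel replicate C of pft1-1 at 23C is the lowest array for all 4 genes.

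Of the 13 root markers listed, 3 were measured: PYK10, a root beta-glucosidase, and the root hair expansins EXPA7 and EXPA18. Their log2 summed level was 11.41 to 12.28 in pft1-1 at 23C, 12.29 to 12.79 in WT at 23C, 12.35 to 13.17 in pft1-1 at 16C and 12.92 to 13.25 in WT at 16C. This sum is nearly PYK10 alone, which read 11.40 to 13.24 over the arrays, against 2.01 to 5.42 for EXPA7 and 2.29 to 5.64 for EXPA18, and it was not tested. PYK10 fell by 0.93 between 23C and 16C in pft1-1 (SE 0.26, limma adjusted p = 0.0398) and had a difference of -0.58 in WT (SE 0.26, limma adjusted p = 0.285), but its call in pft1-1 was lost in 11 of 20 alternatives, with limma adjusted p up to 0.129 without the A replicate of pft1-1 at 16C. EXPA7 read 2.05 to 2.34 in pft1-1 at 23C and 2.01 to 2.04 in WT at 23C. It was thus not lower in the mutant there, though these values lie at the low end of the scale. At 16C it read 5.07, 4.65 and 2.24 in pft1-1 and 5.42, 2.04 and 2.34 in WT. Neither EXPA7 (limma adjusted p = 0.220 in pft1-1 and 0.571 in WT) nor EXPA18 (0.137 and 0.298) was called between temperatures. The part of root content or of the array quality values above in the results for the 4 genes was not tested, and none of the listed seed storage and floral genes had a probe set of its own here.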

How the data were processed

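Total RNA of each seedling sample was labelled with biotin and hybridised to 1 array, per the labels' protocols. The deposited table holds log2 values per probe set that the authors had normalised between arrays, and RMA and affy are named, without versions, per the submitters' processing notes. The table has 22810 probe sets, of which 64 controls were set aside and 22746 tested without a filter. No 2 arrays were identical. The platform annotation, matched by Entrez identifier to RefSeq loci, names 1 gene for 13513 of the 22746, several for 503 and none for 8730; names rest on it and can be old. Group means were estimated per probe set by limma 3.58.1 (R 4.3.3), 4 means on 12 arrays (lmFit, eBayes, 8 residual and 1.05 prior degrees of freedom) and a call means a p under 0.05 after Benjamini-Hochberg adjustment across the 22746. SE is limma's moderated standard error. The number of arrays limits the precision. The procedure was tested on simulated data, and plots used matplotlib 3.10.9.

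The genes and lists were chosen with earlier results of these data known. A planned search of promoters for motifs was not run, since no promoter sequences were available. Named were the 4 genes, every measured gene of the pathway lists, and the 5 nearest genes of each of the 4. Alternatives were the letters as replicate block, a block that sets letter C apart, arrays lettered A or B without C, only the arrays compared, renewed quantile normalisation, median centring, the upper 60% of probe sets, an intensity trend and leaving out each array. Deviations of arrays that share a letter correlated at 0.129, 0.473 and 0.158 (A, B, C) for pft1-1 and WT at 23C, and at 0.357, -0.101 and 0.474 for the genotypes at 16C. Between temperatures they correlated at 0.421, 0.274 and 0.529 for WT and at 0.200, 0.196 and 0.339 for pft1-1. Arrays of different letters were not compared in this way, so these values cannot show whether the letters are pairs. The series text states independent RNA preparations, and the main fit did not pair the arrays.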

Additional observations from a re-analysis of the deposited data

How the results depend on the processing

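The 4 genes and the other genes with a call have 881 values under alternatives, of which 823 kept the direction and the side of the threshold, 31 lost and 9 gained a call, and 18 turned sign, all of these among uncalled differences. The fall of DFR, UF3GT and AT4G14090 in pft1-1 between temperatures was called in every fit that left out an array. With the letters as replicate block their calls held (limma adjusted p = 0.0226, 0.0283 and 0.0106), the calls among all probe sets were 5 between genotypes at 16C (8 in the fit without it) and 1859 for temperature in WT (1112), and of the calls named only that of AT5MAT was lost. With letter C as a block there were 2 calls between genotypes at 23C (5 otherwise) and 1704 for temperature in WT. Letters A and B alone gave 2 and 1 calls between genotypes at 23C and 16C, and 2334 and 481 for temperature in pft1-1 and WT. They turned the 16C genotype difference of UF3GT to 0.73, of UGT78D2 to 0.10 and of AT5MAT to 0.20, and the interaction of AT5MAT to -0.27. Using only the arrays compared gave 0 and 0 calls between genotypes at 23C and 16C and 348 for temperature in WT. Centring on medians gave 9 and 14 between genotypes at 23C and 16C, an intensity trend 8 and 15, and the upper 60% of probe sets 13 at 23C. In that upper 60%, 1 of the 4 genes was called for temperature in WT, where 1245 of the 13648 probe sets tested were. Repeated quantile normalisation changed no count by over 1.5 times. The cause of these changes was not tested, beyond fewer arrays or probe sets where the setting has them.

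Leaving out 1 array at a time, calls ranged from 2 to 54 between genotypes at 23C, 3 to 42 at 16C, 2483 to 4467 for temperature in pft1-1, 381 to 1352 in WT and 0 to 6 for the interaction, and 0 to 1 of the 4 genes were called for temperature in WT. Signs turned in the 16C genotype difference, which ranged from -0.64 to 1.16 for DFR, -1.12 to 0.71 for UF3GT, -0.44 to 0.90 for AT4G14090, -0.39 to 0.014 for UGT78D2, -0.32 to 0.31 for CHIL and -0.92 to 0.21 for AT5MAT, and in the interaction, from -0.52 to 0.094 for UGT78D2, -1.22 to 0.022 for UGT71C1 and -0.30 to 0.83 for AT5MAT. The interaction has no fit with fewer groups, and AT5MAT and UGT71C1 lie below the 60% filter. Without scanner intensities or detection calls, the low levels near 2.4 and 3.3 cannot be set against background.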
